A study of Mus musculus with 6 samples.

Results

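A set of 10 genes of the eicosanoid pathway was followed in bone marrow-derived macrophages treated with KN93, a compound used to block calmodulin-dependent kinases such as CaMKII. The 10 members were taken by symbol from a table of 54446 entries: the prostanoid synthesis genes Ptgs1, Ptgs2 and Ptges, the leukotriene synthesis genes Alox5, Alox5ap, Ltc4s and Lta4h, and the receptor genes Ptgir, Ptger2 and Ptger4. Each symbol matched 1 entry. The rule that names them sets no threshold on a measured value. The cells were grown from the bone marrow of 6-week-old C57BL/6 mice and received PBS, a buffer, in the control group, 5 µM KN93 in the low dose group or 10 µM KN93 in the high dose group. Each of the 3 groups held 2 RNA sequencing samples. The labels name neither the solvent of KN93 nor the length of treatment, and nothing in them says that the samples of a group had separate mice or cultures as their source. All p-values thus rest on a spread between samples that may be technical.

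Eicosanoids are signalling lipids made from arachidonic acid, which phospholipases release from membranes. The cyclooxygenases COX-1 and COX-2, encoded by Ptgs1 and Ptgs2, turn it into prostaglandin H2, from which terminal synthases such as the microsomal prostaglandin E synthase encoded by Ptges make the individual prostanoids. The 5-lipoxygenase encoded by Alox5, helped by the activating protein FLAP encoded by Alox5ap, starts the other branch and makes leukotriene A4. Lta4h encodes the hydrolase that turns leukotriene A4 into leukotriene B4, a neutrophil attractant, and Ltc4s encodes the synthase that joins it to glutathione to give the cysteinyl leukotrienes. Ptgir encodes the prostacyclin receptor IP, and Ptger2 and Ptger4 encode the prostaglandin E2 receptors EP2 and EP4. All these receptors couple to the stimulatory G protein and raise cAMP, which in macrophages is known to dampen inflammatory cytokine output.

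Levels are in FPKM, fragment counts scaled to gene length and library size, so that different genes can be set side by side. Changes were tested with limma on log2(FPKM + 1) over the 12722 genes that reached 1 FPKM in 2 or more samples, and a gene was called at a Benjamini-Hochberg adjusted p under 0.05. The ± beside a mean is the SD of the 2 samples, and the ± beside a log2 change is limma's standard error. The values imply library totals of 24200000 to 28400000 fragments. Of the members 9, all but Alox5, had at least 1 FPKM in each of the 6 samples. As a check of the labelled cell type, all 10 macrophage markers examined, among them Adgre1, Csf1r and Cd68, were above the filter, and their summed level was 19906 and 19379 FPKM in PBS samples, 15287 and 14791 FPKM in 5 µM samples and 8442 and 9300 FPKM in 10 µM samples. At 10 µM 8 of these macrophage markers fell and 1 rose, and their part in the results below was not tested.

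With PBS, Alox5ap was the most abundant member, at 159 and 152 FPKM, and Ptgs1 followed at 61.3 ± 5.93. Ptgs2 (11.3 ± 2.71) and Lta4h (9.85 ± 0.429), Ptger2 (3.97 ± 0.294) and Ptges (3.69 ± 0.578), and Ltc4s (2.42 ± 0.214) and Ptgir (2.26 ± 0.320) formed pairs of neighbours in this order whose samples overlapped. Ptger4, at 7.85 ± 1.09 FPKM, stood between the first and the second of these pairs, and Alox5 was lowest, at 0.640 ± 0.0296. At 5 µM the samples of each neighbouring pair overlapped along the whole run Lta4h, Ltc4s, Ptgs2, Ptgir, Ptges and Ptger4, whose means lay between 9.65 and 5.21 FPKM. At 10 µM Alox5ap was still first, at 96.2 ± 5.26 FPKM, but Ptgir came next, at 24.2 ± 1.51, and then Ptgs2, at 13.7 ± 1.69. Ptgs1, at 9.84 ± 0.935 FPKM, came after these, with samples that overlapped those of Lta4h.

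**Figure D1:**
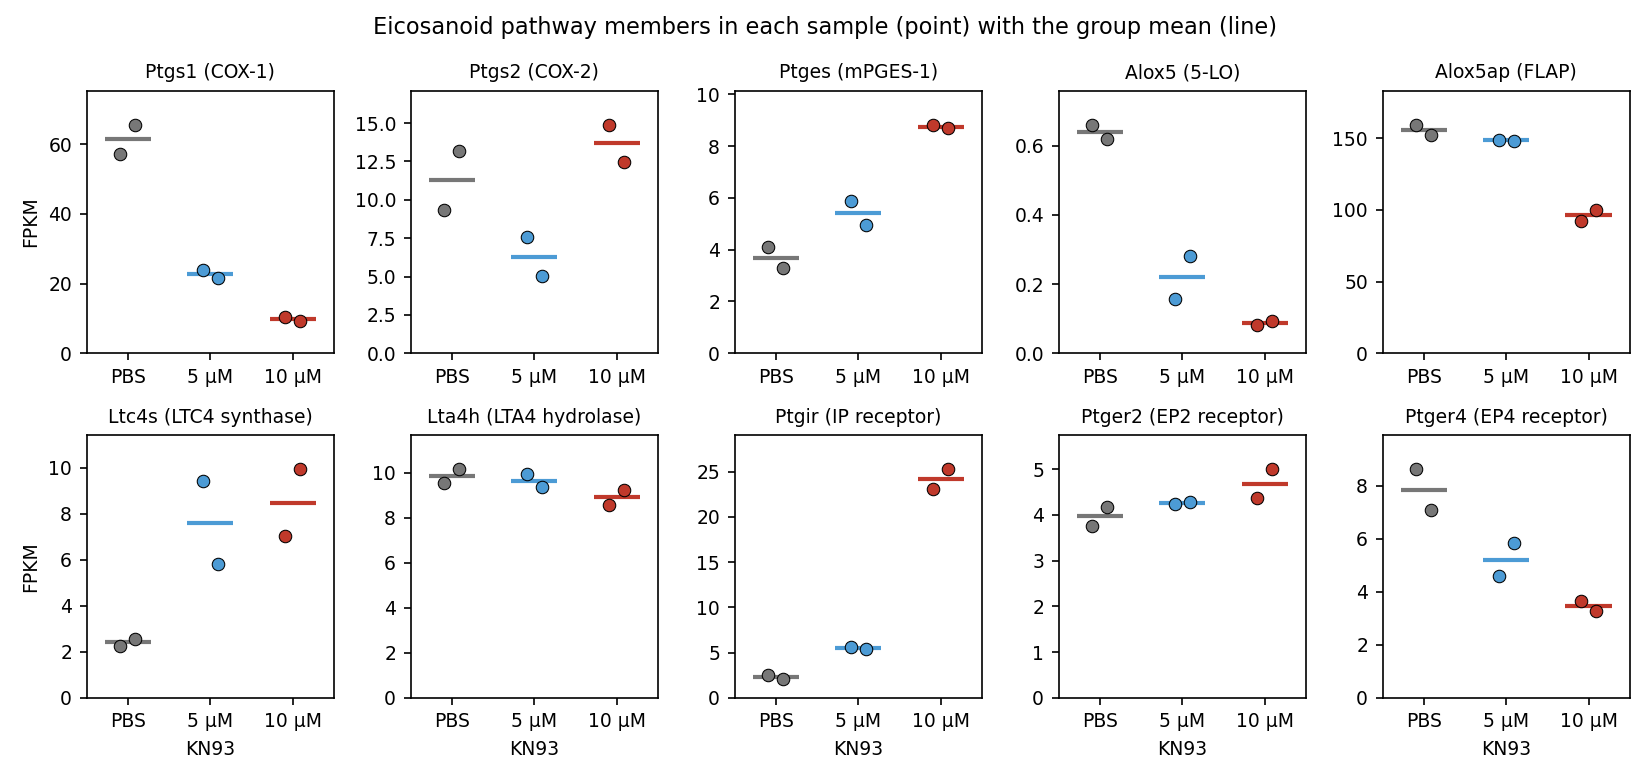
Expression of the 10 members in FPKM (vertical axes, each from 0) with PBS, 5 µM and 10 µM KN93; points are samples and lines are means of 2. Ptgir at 10 µM lies at 23.1 and 25.3 FPKM against 2.49 and 2.03 with PBS, whereas Ptgs1 lies at 10.5 and 9.18 against 57.1 and 65.5.

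At 10 µM, 6 of the 9 tested members were called against PBS: Ptgir, Ltc4s and Ptges rose, and Ptgs1, Ptger4 and Alox5ap fell. Of all genes tested, 50.5% were called in this comparison (28.5% higher and 22% lower), so the share of members called was not far from the background. Of the 9 tested members, 4 were called and changed at least 2-fold on the scale of FPKM + 1, against 7.84% of all tested genes. Ptger4 is not among these, as its log2 change on that scale was -0.99, although its mean FPKM was 2.27-fold lower. At 5 µM against PBS 6 of the 9 were also called, with Ptgir, Ltc4s and Ptges higher and Ptgs1, Ptger4 and Ptgs2 lower, beside 30.5% of all genes (15.1% higher and 15.4% lower). This count was 3 to 5 with any 1 of the 6 samples left out and 3 with only the PBS and 5 µM samples in the fit. Of the 9 tested members, 3 were called and changed at least 2-fold on the same scale at 5 µM, against 3.29% of all tested genes. At 10 µM against 5 µM 5 of the 9 were called, with Ptgir, Ptgs2 and Ptges higher and Ptgs1 and Alox5ap lower, beside 19.9% of all genes (11.4% higher and 8.5% lower), and 3 to 5 with any 1 sample left out. The median log2 change of the tested members was 0.19 at 10 µM and -0.03 at 5 µM, beside 0.05 and 0.01 over all tested genes. The comparisons share samples and are therefore not independent of each other.

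**Figure D2:**
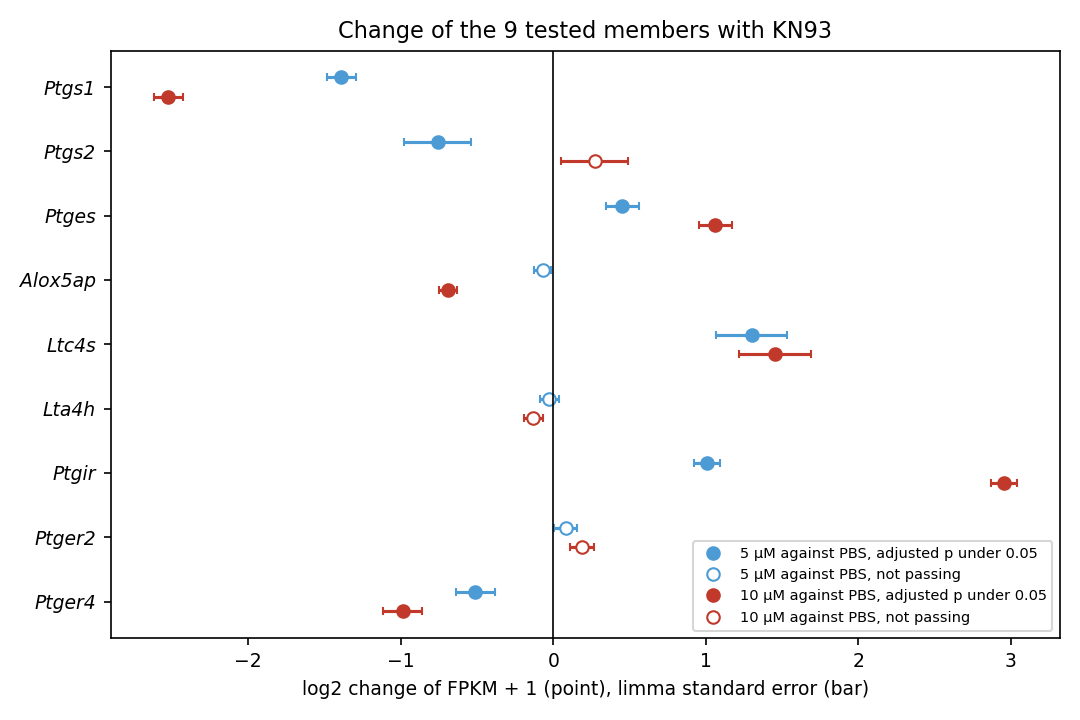
Log2 change of FPKM + 1 (horizontal axis) of the 9 tested members at 5 µM and 10 µM KN93 against PBS; points are limma estimates, bars are standard errors and filled points passed at an adjusted p under 0.05. Ptgir has the largest rise of the members at 10 µM (2.95) and Ptgs1 the largest fall (-2.52).

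Ptgs1 fell at both doses, while Ptgs2 was lowest at 5 µM and did not pass the test against PBS at 10 µM. Ptgs1, which encodes the cyclooxygenase usually described as constitutive, was at 57.1 and 65.5 FPKM with PBS, 23.8 and 21.7 with 5 µM KN93 and 10.5 and 9.18 with 10 µM KN93. The samples of the 3 groups did not overlap, and the mean at 10 µM was 6.23-fold lower than with PBS. The log2 change of Ptgs1 was -1.39 ± 0.10 at 5 µM and -2.52 ± 0.10 at 10 µM (limma adjusted p = 0.000668 and 3.69e-05), and the call held under each of the 15 alternatives tried. It was also lower at 10 µM than at 5 µM, with a log2 change of -1.13 ± 0.10 (limma adjusted p = 0.00212).

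Ptgs2, which encodes the cyclooxygenase that inflammatory stimuli induce, was at 9.36 and 13.2 FPKM with PBS, 7.58 and 5.00 with 5 µM KN93 and 14.9 and 12.5 with 10 µM KN93. The 5 µM samples lay below those of both other groups, while the 10 µM and PBS samples overlapped. At 5 µM Ptgs2 was lower than with PBS by a log2 change of -0.76 ± 0.22, a call at the edge of the threshold (limma adjusted p = 0.0484, range over the alternatives 0.0122 to 0.183). It was lost without the PBS replicate 1 (0.0531), the PBS replicate 2 (0.183), the 5 µM replicate 2 (0.176) or either 10 µM sample (0.0723 each), and also with no filter (0.146), no intensity trend (0.0597) or only the PBS and 5 µM samples (0.073). At 10 µM against PBS the log2 change was 0.27 ± 0.22, with a 95% interval from -0.27 to 0.81 (limma adjusted p = 0.346). Between the doses Ptgs2 was higher at 10 µM, with a log2 change of 1.03 ± 0.22 (limma adjusted p = 0.0277). This call was lost without the 5 µM replicate 2 (0.104), the 10 µM replicate 1 (0.113) or the 10 µM replicate 2 (0.0737), and with no filter (0.102), within a range over the alternatives of 0.00553 to 0.113.

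Within a sample, the FPKM of Ptgs1 was 6.10 and 4.96 times that of Ptgs2 with PBS and 3.15 and 4.34 times at 5 µM. At 10 µM the ratio was 0.706 and 0.735, so that Ptgs2 had the higher level of the pair in both samples. The summed FPKM of both cyclooxygenase genes was 66.5 and 78.7 with PBS, 31.4 and 26.7 with 5 µM KN93 and 25.4 and 21.7 with 10 µM KN93.

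**Figure D3:**
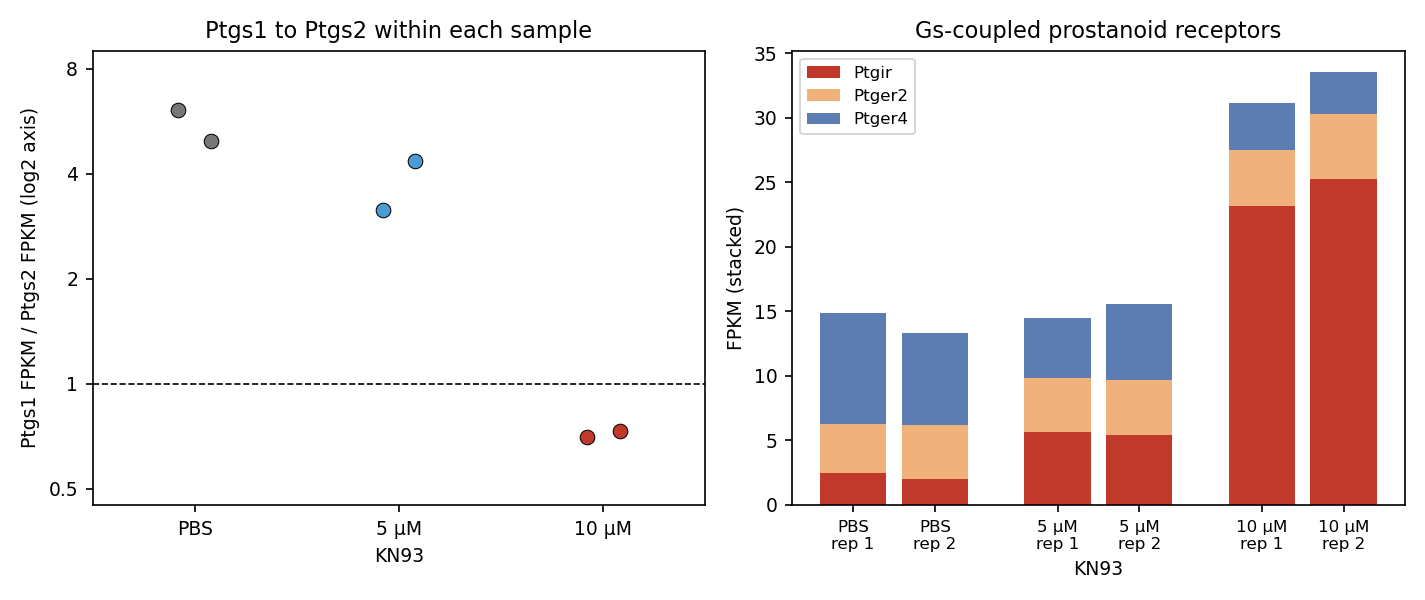
Left, FPKM of Ptgs1 over FPKM of Ptgs2 in each sample (log2 axis, dashed line at equal levels), which is below 1 at 10 µM (0.706 and 0.735) and above it in the other samples; right, stacked FPKM of Ptgir, Ptger2 and Ptger4 in each sample, whose sum is 14.9 and 13.3 with PBS, 14.5 and 15.5 with 5 µM KN93 and 31.1 and 33.5 with 10 µM KN93.

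The promoter windows of 4 members are shown because their genes gave the largest rise (Ptgir), the largest fall (Ptgs1), a rise along the same prostaglandin E2 branch (Ptges) and the course lowest at 5 µM (Ptgs2). They come from RefSeq on build GRCm38.p6, which gave a window for 9 of the members, and run from 250 bases before to 50 bases after the annotated start, each read 5′ to 3′ on the strand of its gene. Ptgs1 lies at chr2:36230176-36230475 on the plus strand, Ptgs2 at chr1:150099781-150100080 on the plus strand, Ptges at chr2:30903248-30903547 on the minus strand and Ptgir at chr7:16906240-16906539 on the plus strand. The starts of Ptgs1, Ptgs2 and Ptgir match the gene spans given below. The Ptges window instead lies inside its gene span, which begins at 30929863 when read on the minus strand, so the RefSeq start differs from that span. Capitals mark matches, on either strand, to the E-box CACGTG, the core TGACG of the cAMP response element, the GC box GGGCGG, the TATA box TATAAA or the AP-1 site TGANTCA.
Ptgs1: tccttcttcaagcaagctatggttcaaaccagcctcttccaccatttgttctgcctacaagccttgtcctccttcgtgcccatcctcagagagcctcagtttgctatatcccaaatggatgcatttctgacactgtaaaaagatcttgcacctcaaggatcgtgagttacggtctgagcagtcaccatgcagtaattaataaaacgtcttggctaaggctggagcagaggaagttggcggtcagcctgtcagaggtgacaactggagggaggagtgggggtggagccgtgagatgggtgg
Ptgs2: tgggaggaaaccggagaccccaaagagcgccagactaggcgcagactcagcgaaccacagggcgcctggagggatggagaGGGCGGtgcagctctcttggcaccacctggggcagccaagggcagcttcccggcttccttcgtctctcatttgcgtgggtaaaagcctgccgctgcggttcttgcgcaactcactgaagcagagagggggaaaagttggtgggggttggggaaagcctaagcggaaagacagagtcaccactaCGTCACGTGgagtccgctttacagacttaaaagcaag
Ptges: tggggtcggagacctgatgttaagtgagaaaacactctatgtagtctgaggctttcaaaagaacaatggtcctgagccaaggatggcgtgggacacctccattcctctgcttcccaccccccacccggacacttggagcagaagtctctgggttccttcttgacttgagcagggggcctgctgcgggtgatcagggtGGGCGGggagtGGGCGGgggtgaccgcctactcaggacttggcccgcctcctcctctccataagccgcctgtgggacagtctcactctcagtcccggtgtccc
Ptgir: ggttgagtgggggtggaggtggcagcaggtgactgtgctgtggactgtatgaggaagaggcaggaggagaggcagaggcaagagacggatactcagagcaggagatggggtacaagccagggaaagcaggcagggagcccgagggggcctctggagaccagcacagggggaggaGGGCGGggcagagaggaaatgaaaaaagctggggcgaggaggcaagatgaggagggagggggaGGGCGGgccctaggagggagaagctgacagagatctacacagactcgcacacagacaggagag
The Ptgs2 window held 1 E-box and 1 cAMP response element core, which overlap each other, and 1 GC box. The Ptges and Ptgir windows held 2 GC boxes each, and the Ptgs1 window matched none of the motifs. Of all 32851 promoter windows, 7.15% held the E-box, 20.8% the cAMP response element core, 35.7% the GC box, 13.6% the TATA box and 7.81% the AP-1 site. A match describes the letters only and does not show that a factor binds there.

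Ptges, the terminal synthase gene of prostaglandin E2, rose with dose. It was at 4.10 and 3.29 FPKM with PBS, 5.88 and 4.96 with 5 µM KN93 and 8.83 and 8.69 with 10 µM KN93, with no overlap between the groups. The log2 change of Ptges was 0.45 ± 0.11 at 5 µM, 1.06 ± 0.11 at 10 µM and 0.61 ± 0.11 for 10 µM against 5 µM (limma adjusted p = 0.0273, 0.000763 and 0.0164). At 5 µM the Ptges call did not survive leaving out the PBS replicate 2 (0.103), the 5 µM replicate 1 (0.119) or the 10 µM replicate 2 (0.0501), and was also lost with no filter (0.0876) or only the PBS and 5 µM samples (0.0511), within a range of 0.0134 to 0.119. The call between the doses was lost without the 5 µM replicate 2 (0.0803), the 10 µM replicate 1 (0.0711) or the 10 µM replicate 2 (0.067), and with no filter (0.0638), within a range of 0.00248 to 0.0803.

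In the leukotriene branch, Ltc4s rose, Alox5ap fell at 10 µM, Lta4h did not pass the test, and Alox5 was low throughout. Alox5ap was at 159 and 152 FPKM with PBS, 149 and 148 with 5 µM KN93 and 92.5 and 99.9 with 10 µM KN93. Both 10 µM samples lay below all the others. Its log2 change was -0.69 ± 0.06 at 10 µM against PBS and -0.62 ± 0.06 against 5 µM (limma adjusted p = 0.00034 and 0.00256). At 5 µM against PBS the change was -0.07 ± 0.06, with a 95% interval from -0.21 to 0.07 (limma adjusted p = 0.41).

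Ltc4s was at 2.27 and 2.58 FPKM with PBS, 9.43 and 5.80 with 5 µM KN93 and 7.02 and 9.94 with 10 µM KN93. All 4 KN93 samples lay above both PBS samples, and the samples of the 2 doses overlapped. The log2 change of Ltc4s was 1.30 ± 0.23 at 5 µM and 1.45 ± 0.23 at 10 µM against PBS (limma adjusted p = 0.0114 and 0.00406). Without the PBS replicate 1 the call at 5 µM was lost (0.0603, range over the alternatives 0.00703 to 0.0603). Between the doses the change was 0.15 ± 0.23, with a 95% interval from -0.43 to 0.73 (limma adjusted p = 0.678). Ltc4s has 1014 exon bases, and its values rest on 62 and 74 recovered fragments with PBS, 252 and 163 with 5 µM KN93 and 172 and 286 with 10 µM KN93. An antisense gene, Gm26542, covers 268 of these bases and was at 0.679 and 0.979 FPKM with PBS, 1.23 and 1.54 with 5 µM KN93 and 1.04 and 1.67 with 10 µM KN93; since the use of strand is not given, fragments of the pair cannot be told apart. In FPKM, Alox5ap exceeded Ltc4s 70.2-fold and 59.0-fold with PBS, 15.8-fold and 25.5-fold with 5 µM KN93 and 13.2-fold and 10.1-fold with 10 µM KN93.

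Lta4h was at 9.54 and 10.2 FPKM with PBS, 9.93 and 9.37 with 5 µM KN93 and 8.58 and 9.25 with 10 µM KN93. Its log2 change was -0.03 ± 0.06 at 5 µM and -0.13 ± 0.06 at 10 µM (limma adjusted p = 0.788 and 0.134), with a 95% interval at 10 µM from -0.28 to 0.02. With median-of-ratios scaling Lta4h passed at 10 µM (limma adjusted p = 0.0476, range over the alternatives 0.0476 to 0.425). Alox5 was at 0.661 and 0.619 FPKM with PBS, 0.157 and 0.281 with 5 µM KN93 and 0.0806 and 0.0944 with 10 µM KN93. These levels rest on 73 and 72 fragments with PBS, 17 and 32 with 5 µM KN93 and 8 and 11 with 10 µM KN93, and the groups did not overlap. Alox5 was below the expression filter and was not tested in the main comparison. With no filter its log2 change was -0.43 ± 0.07 at 5 µM and -0.59 ± 0.07 at 10 µM (limma adjusted p = 0.0267 and 0.00543 over 30856 genes). In these macrophages the FPKM of the FLAP gene was 241-fold and 246-fold that of the lipoxygenase gene with PBS, and 1147-fold and 1058-fold at 10 µM.

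Among the receptors, Ptgir rose, Ptger4 fell and Ptger2 did not pass the test. Ptgir was at 2.49 and 2.03 FPKM with PBS, 5.64 and 5.43 with 5 µM KN93 and 23.1 and 25.3 with 10 µM KN93. Its groups did not overlap, and the mean at 10 µM was 10.7-fold that with PBS. The log2 change of Ptgir was 1.01 ± 0.08 for 5 µM against PBS, 2.95 ± 0.08 for 10 µM against PBS and 1.95 ± 0.08 for 10 µM against 5 µM (limma adjusted p = 0.00107, 1.81e-05 and 0.000501), and each call held under all 15 alternatives.

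Ptger4 was at 8.61 and 7.08 FPKM with PBS, 4.60 and 5.82 with 5 µM KN93 and 3.64 and 3.26 with 10 µM KN93, with no overlap between the groups. Its log2 change was -0.51 ± 0.13 at 5 µM and -0.99 ± 0.13 at 10 µM (limma adjusted p = 0.0315 and 0.00181). At 5 µM the Ptger4 call did not survive leaving out the PBS replicate 1 (0.139), the 5 µM replicate 1 (0.124), the 10 µM replicate 1 (0.0507) or the 10 µM replicate 2 (0.0508), and was also lost with no filter (0.101) or only the PBS and 5 µM samples (0.0508), within a range of 0.00616 to 0.139. Between the doses the change was -0.48 ± 0.13 and just missed the threshold (limma adjusted p = 0.0526), with a range over the alternatives of 0.0205 to 0.196. Ptger2 was at 3.76 and 4.18 FPKM with PBS, 4.23 and 4.28 with 5 µM KN93 and 4.37 and 4.99 with 10 µM KN93. Its log2 change at 10 µM was 0.19 ± 0.08, with a 95% interval from -0.00 to 0.39 (limma adjusted p = 0.0923).

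Of the summed FPKM of these receptors, Ptgir made up 16.7% and 15.3% with PBS, 39.0% and 35.0% with 5 µM KN93 and 74.3% and 75.4% with 10 µM KN93. Ptger4 made up 58.0% and 53.3% with PBS, 31.8% and 37.5% with 5 µM KN93 and 11.7% and 9.72% with 10 µM KN93. Among these 3 receptor genes, Ptger4 had the highest level in both PBS samples and Ptgir in both 10 µM samples.

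The dose steps were compared within the same fit, as the change from 5 µM to 10 µM minus the change from PBS to 5 µM. Of the 9 members, 2 were called, beside 5.36% of all genes (2.88% with a positive and 2.48% with a negative difference). Ptgir rose more in the second step, with a difference of 0.94 ± 0.15 on the log2 scale (limma adjusted p = 0.0335), and Alox5ap fell more in it, with a difference of -0.55 ± 0.10 (limma adjusted p = 0.0408). Both calls were lost when any 10 µM or 5 µM sample or the PBS replicate 1 was left out, with adjusted p up to 0.209 and 0.224, and that of Alox5ap also without the PBS replicate 2 (0.097). With no filter both were lost too (0.108 for Ptgir and 0.11 for Alox5ap), as was Ptgir with a pseudocount of 0.1 FPKM (0.0653) and Alox5ap with no intensity trend (0.0589). The difference for Ptgs2 was 1.79 ± 0.38 and missed the threshold (limma adjusted p = 0.0579, range over the alternatives 0.0156 to 0.256). For Ptgs1 it was 0.25 ± 0.17 (limma adjusted p = 0.389), with a 95% interval from -0.15 to 0.66.

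The rest of the pathway was followed in 11 lists with 133 distinct genes, whose counts are to be read beside the 28.5% of all genes that rose and the 22% that fell at 10 µM, and the 15.1% that rose and the 15.4% that fell at 5 µM. Of the 22 genes of arachidonate release and recycling, 14 were tested, of which 5 rose and 2 fell at 10 µM. The rises include Pla2g2e, which was under 1 FPKM in both PBS samples and passed the filter only through the KN93 samples. Mgll, which encodes monoacylglycerol lipase, had a log2 change of 3.27 ± 0.07 at 10 µM, and Pla2g12a, a secreted phospholipase A2 gene, rose to 4.77 ± 0.242 FPKM at 10 µM, against 2.42 ± 0.00905 with PBS (limma adjusted p = 1.25e-05 and 0.000322). Lpcat3, whose product puts arachidonate back into phospholipids, fell to 8.70 ± 0.447 FPKM at 10 µM, against 14.3 ± 0.408 with PBS (limma adjusted p = 0.000651). Pla2g4a, which encodes the cytosolic phospholipase A2 that feeds both branches, was named outside the rule, after its values were seen. It was at 8.19 and 6.31 FPKM at 10 µM, against 5.56 and 5.27 with PBS, and did not pass (log2 change 0.35 ± 0.13, limma adjusted p = 0.0654).

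Of the 8 other prostanoid synthase genes tested, 2 rose and 4 fell at 10 µM. Ptgis, which encodes prostacyclin synthase, was at 1.87 ± 0.0583 FPKM with PBS, 0.856 ± 0.316 with 5 µM KN93 and 0.378 ± 0.00962 with 10 µM KN93 (log2 change at 10 µM -1.06 ± 0.14, limma adjusted p = 0.00172). The synthase gene of the ligand of IP was thus lower in the samples in which Ptgir was higher. Ptgis reached 1 FPKM only in the PBS samples and the 5 µM replicate 1 (1.08). It would not have passed the filter without its PBS samples, so that its fall was favoured by the filter. Tbxas1, which encodes thromboxane synthase, was at 24 ± 0.721, 18.9 ± 0.388 and 12.8 ± 0.572 FPKM in order of dose (log2 change at 10 µM -0.86 ± 0.05, limma adjusted p = 0.000135). Of the 5 tested genes of prostanoid transport and breakdown, 1 rose and 1 fell at 10 µM. Hpgd, whose product inactivates prostaglandins, was at 5.51 ± 0.179 FPKM with PBS, 1.01 ± 0.00523 with 5 µM KN93 and 1.13 ± 0.383 with 10 µM KN93, and fell at both doses (log2 change -1.70 ± 0.13 at 5 µM and -1.62 ± 0.13 at 10 µM, limma adjusted p = 0.000822 and 0.000307). Ptgr1, a prostaglandin reductase gene, rose to 18 ± 1.99 FPKM at 10 µM, against 11.1 ± 0.553 with PBS (limma adjusted p = 0.00483). Of the 6 other prostanoid receptor genes, only Ptger1 was above the filter, and none of the 6 other lipoxygenase genes was. Ptger1, which encodes the EP1 receptor, was at 6.83 and 7.36 FPKM with PBS, 6.56 and 7.71 with 5 µM KN93 and 5.12 and 6.03 with 10 µM KN93. In all samples but the PBS replicate 1 it was above Ptger4, and it is not part of the receptor shares given above. It fell at 10 µM with an adjusted p just under the threshold (log2 change -0.30 ± 0.10). This call was lost without the PBS replicate 1 (0.0975), the PBS replicate 2 (0.189) or the 10 µM replicate 1 (0.194), and with a pseudocount of 0.1 FPKM (0.0501), no filter (0.129) or no intensity trend (0.0597), within a range of 0.0142 to 0.194.

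Of the 5 genes tested from the list of leukotriene and lipoxin receptors, 3 fell at 10 µM (Cysltr1, Fpr1 and Cmklr1) and 0 rose. Among these falls only that of Cysltr1 is of a leukotriene receptor gene. The lipoxin receptor gene Fpr2 missed the threshold at 10 µM (log2 change -0.55 ± 0.19, limma adjusted p = 0.053). The median log2 change of -0.80 is that of Cmklr1, so it does not describe the leukotriene receptors. Cysltr2, like Cysltr1 a cysteinyl leukotriene receptor gene, was named outside the rule, after its values were seen. It was at 1.38 ± 0.184 FPKM with PBS and 1.44 ± 0.126 with 10 µM KN93 and did not pass (limma adjusted p = 0.876). Cysltr1, which encodes a receptor for cysteinyl leukotrienes, was at 10.1 ± 0.459 FPKM with PBS, 4.74 ± 0.0841 with 5 µM KN93 and 3.35 ± 0.433 with 10 µM KN93, and fell at both doses (log2 change -0.95 ± 0.08 at 5 µM and -1.36 ± 0.08 at 10 µM, limma adjusted p = 0.00112 and 0.000126). Fpr1, a formyl peptide receptor gene placed in this list with the lipoxin receptor gene Fpr2, fell to 9.62 ± 0.441 FPKM at 10 µM, against 104.6 ± 25.2 with PBS (limma adjusted p = 6.51e-05). Cotl1, which encodes a protein that binds 5-lipoxygenase, fell to 278 ± 16 FPKM at 10 µM, against 496 ± 11.2 with PBS (limma adjusted p = 0.000228). It belonged to the 10 tested genes of leukotriene conversion, of which 2 rose and 2 fell; the other fall is that of Ggt5, which reached 1 FPKM in the PBS samples only and passed the filter through them. In the epoxide branch 2 genes were tested, and Ephx1, an epoxide hydrolase gene, rose to 30.5 ± 3.03 FPKM at 10 µM, against 18.6 ± 0.0491 with PBS (limma adjusted p = 0.000983).

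Downstream of the Gs-coupled receptors, 16 of the 23 tested genes of the cAMP machinery fell and 3 rose at 10 µM, with a median log2 change of -0.40. At 5 µM 11 fell and 2 rose, with a median of -0.20, beside 15.4% lower and 15.1% higher of all genes. The list holds both genes whose products carry the cAMP signal and genes whose products end it, such as phosphodiesterases. Its counts and medians therefore give no single direction of signalling. Rapgef3, which encodes the cAMP sensor EPAC1, was at 0.653 ± 0.0723 FPKM with PBS, 3.06 ± 0.171 with 5 µM KN93 and 5.51 ± 0.446 with 10 µM KN93, and rose at both doses (limma adjusted p = 0.000584 at 5 µM and 4.59e-05 at 10 µM). Rapgef3 was under 1 FPKM in both PBS samples and passed the filter only through the KN93 samples, so that its rise was favoured by the filter. The phosphodiesterase genes Pde3b and Pde8a fell at 10 µM to 1.82 ± 0.0262 and 9.46 ± 0.321 FPKM, against 6.45 ± 0.694 and 21 ± 0.114 with PBS (limma adjusted p = 0.000108 and 5.07e-05). Arrb2, which encodes the receptor adaptor β-arrestin 2, fell to 45.7 ± 1.04 FPKM at 10 µM, against 113.9 ± 8.67 with PBS (limma adjusted p = 6.57e-05). Of the 9 tested cAMP-responsive genes 7 fell and 1 rose at 10 µM, and 7 fell and 0 rose at 5 µM. One of the falls at each dose is Nr4a1, which passed the filter only through its level in the PBS samples, so that its fall was favoured by the filter. Pde4b, a phosphodiesterase gene of both lists, was at 1.13 and 0.877 FPKM at 10 µM, against 3.70 and 2.92 with PBS, and Rgs2, a regulator of G protein signalling, was at 9.76 and 11.4, against 23.1 and 25.9, so that both fell (limma adjusted p = 0.000898 and 0.000281).

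**Figure D4:**
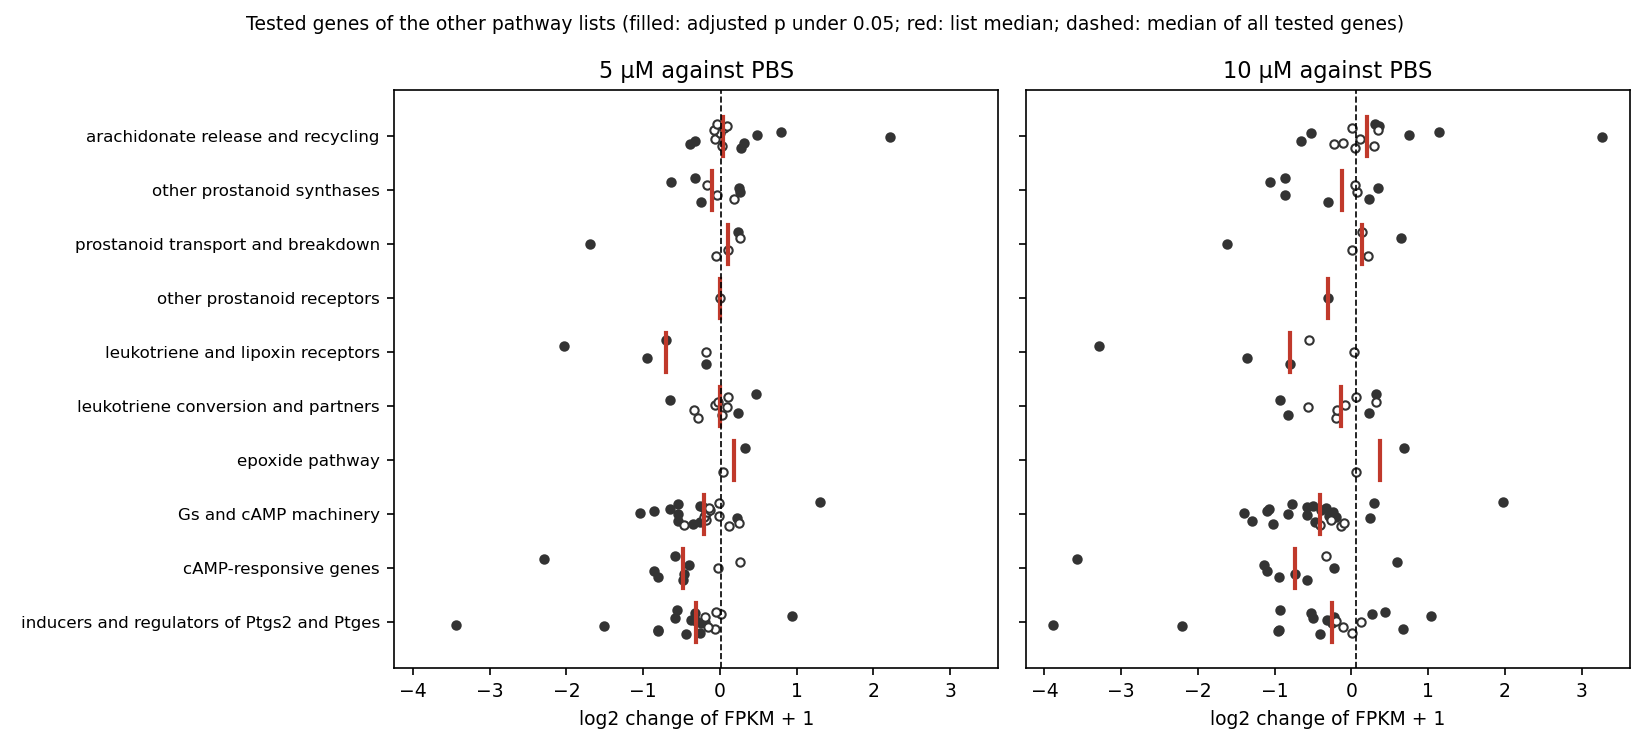
Log2 change of FPKM + 1 (horizontal axes) of the tested genes in the 10 other pathway lists with a tested gene (rows) at 5 µM and 10 µM against PBS; points are genes, filled where the adjusted p was under 0.05, red bars are list medians and dashed lines the median of all tested genes. The leukotriene and lipoxin receptor list has the lowest list median at 10 µM (-0.80), which is the value of Cmklr1.

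Of the 19 tested inducers and regulators of Ptgs2 and Ptges, 11 fell and 4 rose at 10 µM, and 13 fell and 1 rose at 5 µM. One of the falls at each dose is Il1b, which reached 1 FPKM in the PBS samples only and passed the filter through them. The list holds both inducers and genes whose products act the other way, such as Zfp36, so that its counts have no single direction. Pparg, which encodes a nuclear receptor activated by fatty acid derivatives, was at 2.84 ± 0.226 FPKM with PBS, 6.34 ± 0.121 with 5 µM KN93 and 6.91 ± 0.374 with 10 µM KN93, and rose at both doses (limma adjusted p = 0.000752 at 5 µM and 0.00016 at 10 µM). Zfp36, whose product promotes the decay of inflammatory mRNAs, fell to 12.2 ± 0.716 FPKM at 10 µM, against 24.2 ± 1.01 with PBS, and Dusp1 to 9.6 ± 0.63, against 19.3 ± 0.173 (limma adjusted p = 0.000145 and 0.00013). Egr1, which encodes a transcription factor known to activate Ptges, was named outside the rule, after its values were seen. It rose to 9.26 ± 0.462 FPKM at 10 µM, against 5.43 ± 0.507 with PBS (log2 change 0.67 ± 0.09, limma adjusted p = 0.00192). At 5 µM, where Ptges was also called higher, Egr1 did not pass (log2 change -0.07 ± 0.09, limma adjusted p = 0.591). Fos, of the same list, fell at both doses (log2 change -1.52 ± 0.11 at 5 µM and -2.21 ± 0.11 at 10 µM, limma adjusted p = 0.000707 and 6.87e-05). A link of these genes to the level of Ptges was not tested.

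Marker lists of other cell types were followed beside these results. The summed FPKM of the 7 megakaryocyte and platelet markers was 923.5 and 1030 with PBS, 393 and 309 with 5 µM KN93 and 120.1 and 121.2 with 10 µM KN93. Nearly all of it came from Pf4. Gp1bb was at 0 in all samples, and Itga2b, Gp1ba, Gp9 and Gp6 were at 0.679 FPKM or less in every sample. The sum thus describes Pf4 rather than the list. Of the 7 markers 2 were tested, Pf4 and Ppbp, and both fell. Ppbp would not have passed the filter without its PBS samples. Of the 10 stromal and fibroblast markers 8 were tested and 6 fell at 10 µM, and the list summed to 1969 and 1925 FPKM with PBS, 634 and 524 with 5 µM KN93 and 388 and 368 with 10 µM KN93. Nearly all of this sum came from Col1a1, Acta2, Col1a2 and Tagln. Dcn (log2 change -0.10 ± 0.12) and Pdgfra (0.10 ± 0.27) did not pass at 10 µM (limma adjusted p = 0.545 and 0.78). Thy1 and Lum were under 1 FPKM in every sample. Of the 11 neutrophil markers 6 were tested and all 6 fell at 10 µM, among them Camp, which passed the filter only through the PBS samples, and the list summed to 136.6 and 136.3 FPKM with PBS, 63.3 and 66.1 with 5 µM KN93 and 14.6 and 17.4 with 10 µM KN93. These cell types can express Ptgs1, Alox5 or Alox5ap, and their part in the falls of these genes was not tested. Of the 10 mast cell and basophil markers 1 was tested, which fell, and the list summed to 4.78 and 4.76 FPKM with PBS, 1.63 and 1.22 with 5 µM KN93 and 1.57 and 1.29 with 10 µM KN93. Most of this sum is Mcpt8, a basophil protease gene, at 4.17 and 4.07 FPKM with PBS, 1.14 and 0.904 with 5 µM KN93 and 1.37 and 1.09 with 10 µM KN93, while Tpsb2 and Cma1 were at 0 in all samples. Of the 5 eosinophil markers 1 was tested, which fell at 10 µM, and the list summed to 2.17 and 2.39 FPKM with PBS, 1.30 and 1.37 with 5 µM KN93 and 0.617 and 0.585 with 10 µM KN93. Mast cells, basophils and eosinophils can express Ltc4s or Alox5, and their part in these results was not tested. Of the 8 lymphocyte markers 1 was tested, Cd79b, which fell at both doses, with Cd3d at 0 in all samples, and the list summed to 8.03 and 8.13 FPKM with PBS, 3.66 and 3.74 with 5 µM KN93 and 1.37 and 1.87 with 10 µM KN93. None of the 6 dendritic cell markers was tested, and they summed to 0.448 and 0.480 FPKM with PBS, 0.483 and 0.434 with 5 µM KN93 and 0.351 and 0.308 with 10 µM KN93. In such bulk samples fewer cells of a type and less RNA per cell cannot be told apart.

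For the members with the largest changes at 10 µM, the tested genes with the most similar course were found by the Euclidean distance, over the 6 samples, of log2(FPKM + 1) after subtraction of the PBS mean. For Ptgir these were Rsad2 (distance 0.353), Cox6a2 (0.457) and H2-Q6 (0.559). Rsad2, an interferon-induced gene, was at 47.0 and 38.1 FPKM with PBS, 92.6 and 99.6 with 5 µM KN93 and 377 and 331 with 10 µM KN93. H2-Q6 belongs to a family of near-identical class I genes whose fragments can be shared. For Ptgs1 the nearest were Dusp6 (0.331), Itga9 (0.331) and Pald1 (0.377). Itga9, an integrin gene, was at 7.50 and 8.06 FPKM with PBS, 2.84 and 2.59 with 5 µM KN93 and 0.71 and 0.687 with 10 µM KN93.

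On GRCm38 the members are annotated as protein-coding genes: Ptgs1 on chromosome 2 at 36230426 to 36252272, Ptgs2 on chromosome 1 at 150100031 to 150108227, Ptges on chromosome 2 at 30889471 to 30929863, Alox5 on chromosome 6 at 116410077 to 116461178, Alox5ap on chromosome 5 at 149264767 to 149288153, Ltc4s on chromosome 11 at 50236461 to 50238616, Lta4h on chromosome 10 at 93453411 to 93484875, Ptgir on chromosome 7 at 16906490 to 16910905, Ptger2 on chromosome 14 at 44988195 to 45003820 and Ptger4 on chromosome 15 at 5206661 to 5244187. Besides Ltc4s, exons of antisense genes overlap those of Ptgs1, Alox5ap, Ptger2 and Ptger4, by 82 to 1015 bases. Gm43621 overlaps Ptgs1 by 148 bases and was at 2.55 and 3.49 FPKM with PBS, 0.751 and 1.11 with 5 µM KN93 and 0.593 and 0.470 with 10 µM KN93, so that it was lower where Ptgs1 was lower. Gm19719 overlaps Alox5ap by 189 bases and was at 3.99 and 4.92 FPKM with PBS, 3.80 and 4.67 with 5 µM KN93 and 2.03 and 2.57 with 10 µM KN93, lowest in the same samples as Alox5ap. Within the overlaps, fragments of these pairs cannot be told apart either. The overlaps cover 148 of the 3884 exon bases of Ptgs1 and 189 of the 1420 of Alox5ap. The longest overlap of a member with an antisense gene is that of Ptger4 with the pseudogene Gm15937, which was listed at 0.228 FPKM or less in every sample. The protein-coding gene Ttc33 overlaps 82 bases of the Ptger4 exons and was at 10.2 and 10.7 FPKM at 10 µM, against 9.05 and 9.15 with PBS.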

How the data were processed

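RNA sequencing values of 6 samples in 3 groups of 2 were used. The authors deposited FPKM per gene. Per the submitters' processing notes, HISAT2 was the aligner and GRCm38 the build, while not given in the sources used here were the HISAT2 version, counter, annotation, strand use and filters. Columns were matched to samples by title; the prefix DXM in their names is unexplained.

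Gene IDs matched GENCODE M21 on GRCm38 for 99.93% of entries. Multiplied by exon length, 98.8% to 99.0% of low values (up to 20 fragments) were whole fragments within 0.1, which gave the implied library totals. Replicates differed by more than counting noise (median chi-square per gene 1.17 to 1.87).

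Tests were two-sided, with limma 3.58.1 in R 4.3.3 on log2(FPKM + 1), an intensity trend and 1 factor of 3 groups (3 residual and 2.72 prior degrees of freedom). The fit was also run on simulated data in which few genes changed. That run does not show how the tests behave where 50.5% of genes are called, as at 10 µM. Changes on the log2(FPKM + 1) scale understate those of low genes.

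The members were picked by name, with no threshold on a value, but members, gene lists and tests were all chosen with earlier results of these data known. The rule for named genes took the 10 members, per pathway list up to 4 tested genes with the smallest p at 10 µM and up to 2 at 5 µM, and 3 genes of similar course, predicted-gene names left out, for each of the 2 members with the largest change; only some of them are named here.

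Alternatives comprised a 0.1 FPKM pseudocount, no filter, a filter of 5 FPKM, median-of-ratios scaling, quantile normalization, no trend, only the groups compared, a replicate block, voom on recovered fragments, and each sample left out in turn.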

Additional observations from a re-analysis of the deposited data

How the results depend on the processing

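The 6 calls of members at 10 µM against PBS held under all 15 alternatives, with the same direction. The number of members called was 3 to 5 at 5 µM with a sample left out and 3 with only the groups compared, against 6. Between the doses it was 3 to 5 with a sample left out and 3 with no filter, against 5. For the difference of the dose steps it was 0 to 1 with a sample left out, 1 with a pseudocount of 0.1 FPKM or no intensity trend, 0 with no filter and 0 with the replicate block, against 2. Over all genes, leaving out a sample gave 1897 to 3856 calls at 5 µM, against 3881, and 869 to 1922 between the doses, against 2536; no filter gave 1350 there. Replicate numbers came from the order of the samples, and same-numbered samples did not deviate together (correlations of -0.055, 0.0143 and 0.0373), so the numbers are not taken to pair them. With the replicate block Ptgs2 (limma adjusted p = 0.0686) and Ptger4 (0.0514) lost their calls at 5 µM.

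Small log2 changes that missed the threshold turned their sign in places. Leaving out a sample gave -0.0663 to 0.0145 for Lta4h at 5 µM and -0.1561 to 0.4616 for Ltc4s between the doses. For the difference of the dose steps it gave -0.0527 to 0.3636 for Ptges, -0.0497 to 0.1098 for Ptger2 and -0.2492 to 0.3227 for Ptger4, and quantile normalization gave -0.0312 for Ptger2 and -0.018 for Ptger4. At 5 µM leaving out a sample gave -0.1327 to 0.04 for Abcc4, -0.0231 to 0.0988 for Cyp2j6, -0.1987 to 0.125 for Fam213b, -0.0451 to 0.0374 for Pla2g15 and -0.0966 to 0.1063 for Ptger1. At 10 µM leaving one out gave -0.0146 to 0.1286 for Cyp2j6. At 5 µM quantile normalization gave 0.0157 for Pla2g15, median-of-ratios scaling -0.0132 for Ptger1, and voom -0.029 for Ptger1 and -0.0106 for Cotl1. The cause was not tested. With the filter of 5 FPKM Ptger2 has no value. The 2 samples a group, and the 8 to 73 fragments behind Alox5, limit what could be called.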
